A study of Homo sapiens with 6 samples.

Results

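Small nucleolar RNAs (snoRNAs) and small Cajal body RNAs (scaRNAs) were examined in the SKOV3 line with and without an shRNA against CPT1A. Rows of the deposited gene table were taken whose symbol began with SNORA, SNORD or SCARNA followed by a digit and whose raw counts summed to at least 10 over the 6 libraries. Of 57905 rows in the table, 861 carried such a name and 66 met the minimum: 31 of 407 SNORA, 26 of 400 SNORD and 9 of 54 SCARNA rows. The rows were thus selected on their summed raw count, so their counts say how they were chosen and are not a result. Of the 861 rows, 665 (77.2%) held no count in any library and 130 held 1 to 9 counts. At the edge of the rule, 9 rows had 8 counts, among them SNORA71D with 6, 2 and 0 counts in shRNA and 0, 0 and 0 in control libraries, no row had 9, and 6 rows had 10, among them SNORD46 with 1, 2 and 4 counts in shRNA and 0, 0 and 3 in control libraries.

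The series has 3 libraries of SKOV3 cells carrying an shRNA against CPT1A and 3 control libraries. SKOV3 is an established human ovarian cancer cell line. CPT1A is the carnitine palmitoyltransferase of mitochondria that controls the entry of fatty acids for oxidation, and the study asked about its part in lipid metabolism. The controls are labelled WT and normal culture, and no control hairpin is mentioned. The columns of the shRNA libraries carry an unexplained tag, sh2. Carrying any hairpin and losing CPT1A therefore cannot be told apart. The libraries are called biological replicates, and nothing more is said of how the 3 cultures of a group were made, so p-values measure the spread between these libraries.

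SnoRNAs are short, stable RNAs of the nucleolus that pair with ribosomal RNA and direct enzymes to single bases. The C/D box class (SNORD) binds fibrillarin and guides 2′-O-methylation, and the H/ACA class (SNORA) binds dyskerin and guides pseudouridylation. A few, such as U3, U8, U14 and U17, act instead or in addition in cutting the rRNA precursor. ScaRNAs have the same motifs, sit in Cajal bodies and guide changes in spliceosomal RNAs. Most human snoRNAs lie in introns of other genes, are released when the host transcript is spliced and trimmed, and have no poly(A) tail.

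CPT1A itself was at 2.16, 2.00 and 1.96 FPKM (counts scaled to exonic length and library total) in the shRNA libraries, against 6.70, 8.06 and 8.0 FPKM in the controls. Its log2 change was -1.97 ± 0.09 (SE), with an adjusted p of 1.08e-07 (edgeR quasi-likelihood test). Libraries held between 15740143 and 22271565 gene counts. The SKOV3 markers were abundant and summed to 1099 to 1258 FPKM in shRNA and 1607 to 1969 FPKM in control libraries, and 4 of the 7 (KRT19, KRT7, KRT8 and PAX8) were called lower. Markers of other cells were near 0: the 4 immune markers summed to 0.25 to 0.43 FPKM in shRNA and 0.46 to 0.54 FPKM in control libraries with CD3E at 0, the 2 endothelial ones matched in the table to at most 0.03 FPKM in shRNA and at most 0.05 FPKM in control libraries, and the 3 fibroblast ones to at most 0.28 FPKM in shRNA and at most 1.25 FPKM in control libraries. Of the fibroblast markers, DCN and LUM were called lower, and their part in the results below was not tested. Fewer cells of a type and less RNA per cell cannot be told apart in these bulk libraries.

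The sequences of the 3 C/D box RNAs with a GENCODE sequence that were called, of SNORD14E as the relative of SNORD14A, and of SNORA33 as the best-counted H/ACA RNA with a sequence are shown 5′ to 3′ from GENCODE 29 on GRCh38. Capitals mark the C box letters TGATGA nearer the 5′ end and the D box letters CTGA nearer the 3′ end of C/D box RNAs, and the 3′ terminal ACA of the H/ACA RNA. The places are chr20:17962710-17962946 (minus strand) for SNORD17, chr22:29333163-29333258 (minus) for SNORD125, chr11:17074654-17074744 (minus) for SNORD14A, chr11:123058077-123058161 (minus) for SNORD14E and chr6:132817219-132817348 (plus) for SNORA33.
SNORD17: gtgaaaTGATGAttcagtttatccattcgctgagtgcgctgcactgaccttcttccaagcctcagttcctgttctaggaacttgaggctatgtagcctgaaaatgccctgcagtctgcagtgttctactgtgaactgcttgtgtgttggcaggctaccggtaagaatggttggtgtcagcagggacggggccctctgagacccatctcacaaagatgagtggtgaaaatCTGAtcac
SNORD125: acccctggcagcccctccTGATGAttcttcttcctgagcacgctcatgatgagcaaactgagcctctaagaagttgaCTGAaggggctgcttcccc
SNORD14A: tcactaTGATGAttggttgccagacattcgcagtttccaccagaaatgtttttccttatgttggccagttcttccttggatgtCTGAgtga
SNORD14E: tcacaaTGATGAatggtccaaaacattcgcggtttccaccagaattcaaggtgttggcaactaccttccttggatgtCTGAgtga
SNORA33: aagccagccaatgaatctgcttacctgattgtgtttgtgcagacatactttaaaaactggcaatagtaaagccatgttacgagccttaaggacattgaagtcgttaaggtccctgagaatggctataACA
SNORD17 is 237 bases long, SNORD125 is 96 and SNORD14A is 91. SNORD14A and SNORD14E were identical in 71 of 92 aligned columns (77.2%), and both carry the same C and D box letters near their ends.

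Over the SNORD rows with a sequence, 14 of 23 (60.9%) held both TGATGA before and CTGA after the middle of the RNA, against 67.4% of all 288 GENCODE transcripts with a SNORD name and 0.0526% of 1900 snRNA transcripts. Of the SNORA rows with a sequence, 21 of 25 (84.0%) had ACA within the last 8 bases, against 89.9% of 149 SNORA transcripts and 8.42% of snRNA transcripts. Letters were searched on the transcript strand with no mismatch, so a box with another letter was not counted, and these are descriptions of sequence.

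Not every row was a small RNA. In GENCODE 29, 54 of the 66 rows were snoRNA or scaRNA genes of 68 to 330 bases, with a median of 134. Another 8 were of another type or length, such as SNORA67 (ENSG00000264772), a processed transcript of 4554 bases overlapping EIF4A1, SNORA76, which is the lincRNA SNHG25, and SNORD3D, a lincRNA model of 637 bases. The remaining 4 IDs, among them SNORA73 (ENSG00000252114), had no entry. Names of 15 rows came from Rfam, and 6 symbols were used by 2 rows each, which are told apart here by ID. Of the 54 small RNA rows, 53 were shorter than 300 bases, the insert size that the labels state for the libraries. The labels give a poly(A) kit and an rRNA depletion kit as alternatives, and the one applied is not specified. SnoRNAs have no poly(A) tail, so what share of them these counts sample depends on that step and is not known. FPKM values of such short rows rest on few counts.

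The counts were low. Over the 6 libraries the median row had 18 counts, 43 rows had fewer than 30, and 3 had 100 or more. SNORD17 alone held 24.1% of the 2672 counts and the 10 best-counted rows held 55.4%. Counts were present in all 6 libraries for 27 rows, and 39 rows were at 0 in at least 1. In 22 rows 1 of the groups had fewer than 5 counts (13 of them higher and 9 lower in shRNA libraries); such a row met the minimum mainly through its higher group, so no count or median over the 66 rows is given as support. SNORD118 (U8) and SNORD13 (U13), both used in rRNA processing, were at 0 in every library. SNORD3A (U3) had 3, 1 and 4 counts in shRNA against 1, 3 and 2 counts in control libraries. Its row is 699 bases long and is not among the small RNA rows, so its counts need not be those of U3.

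Together the 66 rows took 28.9, 32.0 and 27.6 CPM (counts scaled to the library total) in the shRNA libraries and 17.7, 19.6 and 18.0 CPM in the controls. The means were 29.5 ± 2.3 and 18.4 ± 1.0 CPM (SD, n = 3 each), so every shRNA library lay above every control. Most of that gap was SNORD17: without it the rows took 19.7 ± 0.7 CPM in shRNA and 16.3 ± 0.9 in control libraries. Without SNORD17 and SNORD125 the values were 17.6 ± 0.5 in shRNA and 15.6 ± 0.7 in control libraries. The 130 rows below the minimum took 4.48 ± 0.50 CPM in shRNA and 2.64 ± 0.31 in control libraries, from 75, 70 and 94 counts against 42, 60 and 56 counts. By family, SNORD rows took 17.4 ± 1.5 CPM in shRNA and 8.06 ± 1.40 in control libraries, SNORA rows 10.5 ± 0.5 in shRNA and 9.27 ± 0.58 in control libraries, and SCARNA rows 1.63 ± 0.53 in shRNA and 1.11 ± 0.30 in control libraries. None of these sums was TMM-scaled, unlike the tests below. The TMM factors were 1.01 to 1.04 in shRNA and 0.958 to 1.00 in control libraries, and dividing by them would narrow each gap.

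**Figure D1:**
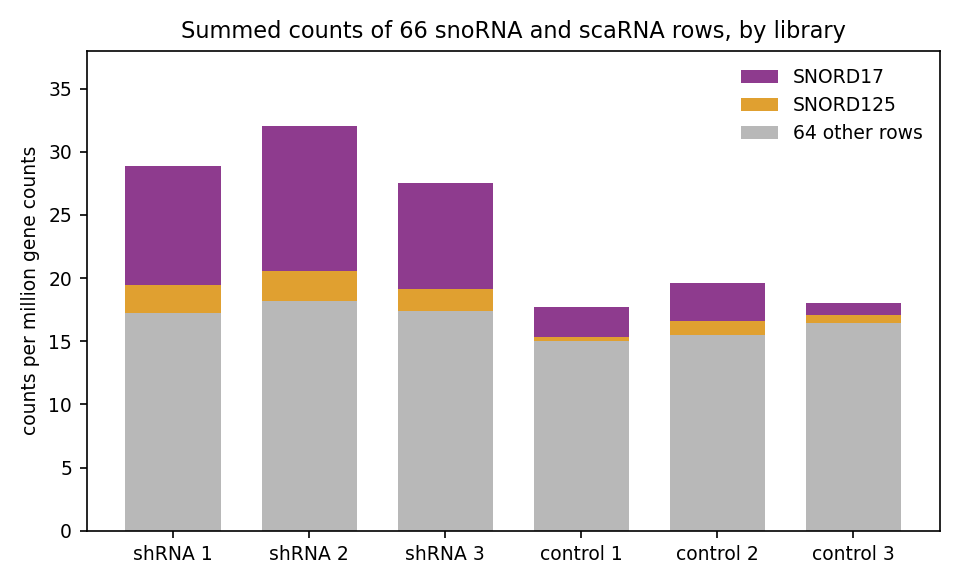
Summed CPM of the 66 snoRNA and scaRNA rows (y axis) in each of 3 shRNA and 3 control libraries (x axis), split into SNORD17, SNORD125 and the other 64 rows. The shRNA bars reach 27.6 to 32.0 and the control bars 17.7 to 19.6, and the SNORD17 segment accounts for most of the gap.

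Other classes of genes with at least 10 counts, picked by symbol with no limit on length, are given for comparison. The 87 genes with a microRNA symbol, which can include longer host transcripts, took 147 ± 3 CPM in shRNA and 142 ± 4 in control libraries. The 43 U RNA genes took 15.7 ± 1.0 in shRNA and 16.0 ± 2.5 in control libraries. A further 36 genes (Y, vault, 7SK, 7SL and related RNAs) took 85.8 ± 1.7 in shRNA and 13.1 ± 1.7 in control libraries. Among those, RPPH1, named after its values were seen, is the RNA of ribonuclease P and had 1292, 1149 and 1278 counts in shRNA and 4, 3 and 4 counts in control libraries, and without it the other 35 took 15.9 ± 1.1 in shRNA and 12.9 ± 1.7 in control libraries. Replication-dependent histone genes, whose mRNAs also lack a poly(A) tail, took 119 ± 6 in shRNA and 114 ± 3 in control libraries. Whether library preparation has a part in any of these differences was not tested.

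All 66 rows were tested in a fit to the 20755 genes with at least 10 counts, and 4 (6.06%) were called at an adjusted p under 0.05. Over all genes tested, 18.5% were called, and of the 6129 genes with 10 to 99 counts, the range of 63 of the 66 rows, 3.36% were called. Calls higher were 2 rows, SNORD17 and SNORD125, against 9.36% of all genes, and calls lower were 2 rows, SNORD14A and SNORA73 (ENSG00000252114), against 9.16% of all genes; SNORA73 met the count minimum through the control group alone. The share called was thus under the figure for all genes. It was above that for genes of low count, but SNORD17 and SNORD125, with 644 and 156 counts, lie outside that class. Of the 63 rows within it 2 were called, SNORD14A and SNORA73. Neither share is a result about these RNAs as a group. An unadjusted p under 0.05 was found for 9 rows. Fitted log2 changes were positive in 42 rows and negative in 24, with a median of 0.30, beside 0.00 over all genes and 0.04 over genes with 10 to 99 counts. The median was 0.31 for SNORA, 0.08 for SNORD and 0.35 for SCARNA rows. Libraries of both groups did not overlap in TMM-scaled CPM for 9 of the 66 rows, beside 34.4% of all genes and 18.4% of those with 10 to 99 counts.

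**Figure D2:**
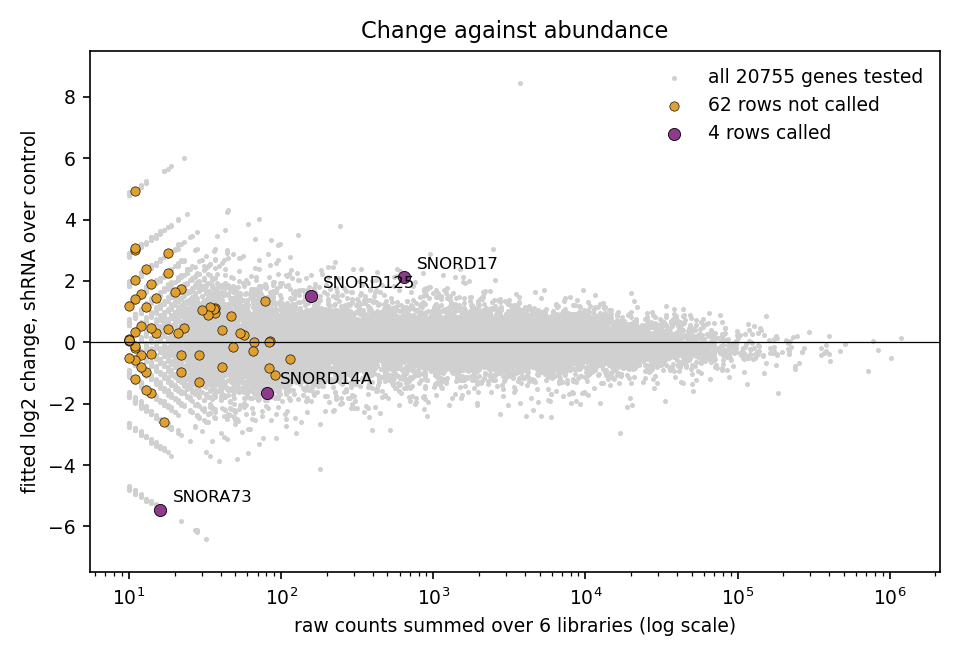
Fitted log2 change of shRNA over control (y axis) against raw counts summed over 6 libraries (x axis, log scale) for all 20755 genes tested (grey), 62 snoRNA and scaRNA rows not called (orange) and the 4 called (purple). Most of the rows lie at the low-count end, where fitted changes scatter widely, and SNORD17 with 644 counts stands farthest to the right.

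SNORD17, a C/D box RNA that guides methylation of 28S rRNA, was the most counted row and the only one called under every one of 15 alternative settings. It had 177, 180 and 158 counts in shRNA libraries and 44, 67 and 18 counts in control libraries. The shRNA libraries lay close together and all 3 were above the highest control, while the controls themselves differed widely. Its level was 41.1 ± 6.5 FPKM in shRNA and 8.93 ± 4.49 FPKM in control libraries (SD, n = 3 each). The log2 change was 2.12 ± 0.48 (SE, adjusted p = 5.40e-05, edgeR), and it ranged from 1.78 to 2.45 when single libraries were left out.

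SNORD17 lies in an intron of SNX5, a sorting nexin of endosome-to-Golgi transport. SNX5 was not called, at 26.5 ± 2.3 FPKM in shRNA and 21.8 ± 2.5 FPKM in control libraries (log2 change 0.21, adjusted p = 0.247, edgeR). SNORD17 counts were 4.69% ± 0.85 of the SNX5 counts in shRNA and 1.19% ± 0.50 in control libraries. The ratio of row to host was higher by 2.00 on the log2 scale (limma, adjusted p = 0.00247 over 994 nested gene pairs of the whole table). Of those 994 pairs, 5.53% were called (2.62% higher and 2.92% lower), and of the 54 pairs with a snoRNA or scaRNA row this was the only one. The counts do not separate mature SNORD17 from unspliced transcripts of SNX5 or of OVOL2, which also overlaps it on the same strand.

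SNORD125, a C/D box RNA, had 42, 38 and 33 counts in shRNA libraries and 6, 24 and 13 counts in control libraries. Every shRNA library was above every control, and control replicate 1 was the lowest of all. Its level was 22.2 ± 3.6 FPKM in shRNA and 7.24 ± 3.91 FPKM in control libraries. The log2 change was 1.51 ± 0.43 (SE, adjusted p = 0.00995, edgeR). Without control replicate 1 it was 1.20 with an adjusted p of 0.0591, the only one of 15 alternatives that ended the call. The host AP1B1, a beta subunit of the AP-1 adaptor of clathrin coats, was at 23.3 ± 1.4 FPKM in shRNA and 19.0 ± 1.3 FPKM in control libraries, with a log2 change of 0.22 (adjusted p = 0.216). SNORD125 counts were 1.36% of those of AP1B1 in shRNA and 0.553% in control libraries, a log2 difference of 1.30 that missed the threshold (limma, adjusted p = 0.0817 over all nested pairs).

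SNORD14A, a copy of U14 that takes part in 18S rRNA processing, had 6, 2 and 11 counts in shRNA libraries and 28, 15 and 19 counts in control libraries. All shRNA libraries were below all controls, though shRNA replicate 3 came near the lowest control. Its level was 3.78 ± 2.52 FPKM in shRNA and 11.7 ± 4.8 FPKM in control libraries, and the log2 change was -1.64 ± 0.56 (SE, adjusted p = 0.0450, edgeR). The call was lost in 7 of 15 alternatives. It ended with scaling by total counts alone, in both limma fits, and without shRNA replicate 1, shRNA replicate 2, control replicate 1 or control replicate 3. Its host RPS13, a protein of the small ribosomal subunit, was at 118 ± 7 FPKM in shRNA and 145 ± 19.8 FPKM in control libraries (log2 change -0.37, adjusted p = 0.0434), a call that was lost in 8 of 15 alternatives. The log2 difference between row and host was -1.15 (limma, adjusted p = 0.193). SNORD14E, chosen after its values were seen, lies in an intron of HSPA8, which codes for a constitutive Hsp70 chaperone. It had 1, 2 and 0 counts in shRNA and 0, 4 and 4 counts in control libraries and was not called, and the treatment of reads shared by the copies is not stated.

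SNORA73 (ENSG00000252114), an Rfam-named row within PSMB5, a catalytic subunit of the proteasome, had no count in any of the 3 shRNA libraries and 9, 1 and 6 counts in the controls. With a floor of 3 counts over the shRNA group it was at least 4.76-fold lower in shRNA libraries, a bound that covers counting error only. All of its counts were in the controls, so it met the minimum of 10 counts through the control group alone, and its bound, p and call are conditional on that choice. The adjusted p was 0.0335 (edgeR), and the call was lost in 6 of the 12 alternatives that gave a value, among them leaving out any single library other than control replicate 2. PSMB5 was at 102 ± 3 FPKM in shRNA and 90.6 ± 8.1 FPKM in control libraries and was not called (log2 change 0.09, adjusted p = 0.660).

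**Figure D3:**
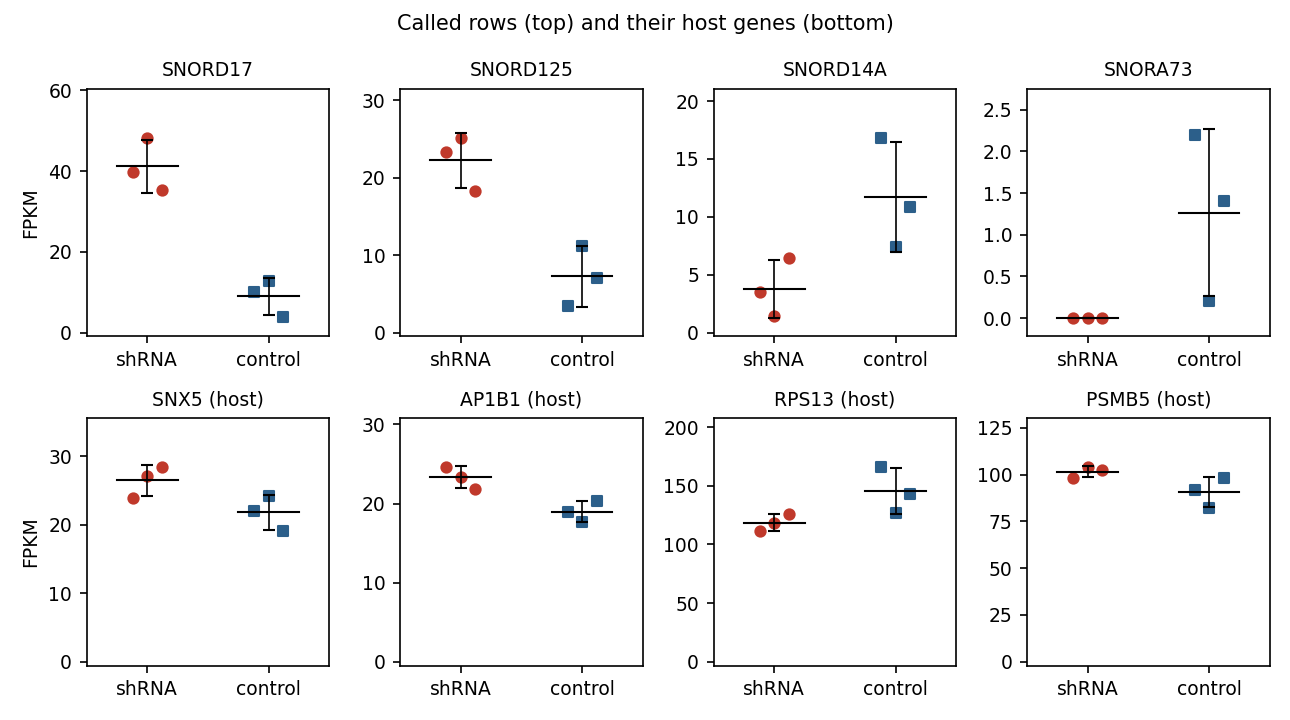
FPKM per library (points) with mean and SD (bars) in 3 shRNA and 3 control libraries for the 4 called rows (top) and the gene each lies in (bottom), each panel with its own y axis. SNORD17 and SNORD125 were higher in all shRNA libraries, SNORD14A and SNORA73 were lower, and the means of the 4 hosts differed by far less.

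Of the 15 best-counted rows, 12 were not called. Among H/ACA RNAs, SNORA33, a guide for 28S rRNA, had 10, 13 and 5 counts in shRNA and 28, 16 and 19 counts in control libraries. All its shRNA counts were below all control counts, but scaled to library size the groups overlapped, and the log2 change of -1.08 ± 0.48 had an adjusted p of 0.142 (edgeR). SNORA33 lies in RPS12, a ribosomal protein gene that was itself called lower (log2 change -0.45, adjusted p = 0.00998), though not without shRNA replicate 2, without control replicate 1 or in either limma fit.

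SNORA11 had 7, 20 and 28 counts in shRNA and 11, 8 and 4 counts in control libraries. The highest values were in shRNA replicates 2 and 3, and the groups overlapped (log2 change 1.34 ± 0.65, adjusted p = 0.114, edgeR). It was called only without shRNA replicate 1. It overlaps NUDT13 on the opposite strand, and with no strand setting stated the reads of both cannot be told apart.

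SNORA73B (U17b), which acts in rRNA processing, had 10, 4 and 8 counts in shRNA and 5, 11 and 10 counts in control libraries, in an intron of RCC1, the nucleotide exchange factor of Ran. The groups overlapped, and the log2 change was -0.15 ± 0.33 (adjusted p = 0.899, edgeR). SNHG3, a snoRNA host gene, also overlaps the SNORA73B row on the same strand and was not called (log2 change 0.11, adjusted p = 0.653). SNORA31 (ENSG00000253051), which lies 425 bases downstream of TPT1, had 14, 15 and 12 counts in shRNA and 4, 23 and 17 counts in control libraries, a log2 change of 0.03. Its shRNA values all fell within the range of the controls.

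The other uncalled SNORA rows of this set were SNORA34 in KANSL2, SNORA66 (ENSG00000251795) in RPL5, SNORA71C in SNHG17, SNORA76, SNORA67 (ENSG00000264772) and SNORA40 (ENSG00000264043). Their log2 changes ran between -0.83 for SNORA40 and 0.86 for SNORA71C, and adjusted p-values between 0.247 and 0.828. With TMM scaling the groups overlapped for each; in FPKM those of SNORA66 did not. SNORA67 and SNORA40 are rows of 4554 and 2275 bases, so their counts are not those of a short H/ACA RNA. SNORA76 is the lincRNA SNHG25, and SNORA66 is an Rfam-named row of 53 bases with no entry in GENCODE 29.

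Among uncalled SNORD rows, SNORD63 had 18, 12 and 10 counts in shRNA and 11, 26 and 6 counts in control libraries, a log2 change of 0.02 ± 0.49. The row is Rfam-named, overlaps an exon of its host HSPA9 in GENCODE 29 and lacks the C box letters TGATGA. Its counts therefore cannot be told apart from reads of HSPA9 transcripts that hold that exon. HSPA9, the Hsp70 chaperone of mitochondria, was called higher (log2 change 0.39, adjusted p = 0.0258). That call was lost without shRNA replicate 2 or 3 or without control replicate 1 or 3. SNORD94, a guide for the spliceosomal U6 RNA, had 10, 10 and 12 counts in shRNA and 7, 15 and 12 counts in control libraries. Its values were close in both groups, with a log2 change of 0.02 ± 0.22. PTCD3, the mitochondrial ribosome gene that contains it, was not called (log2 change 0.08, adjusted p = 0.710).

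**Figure D4:**
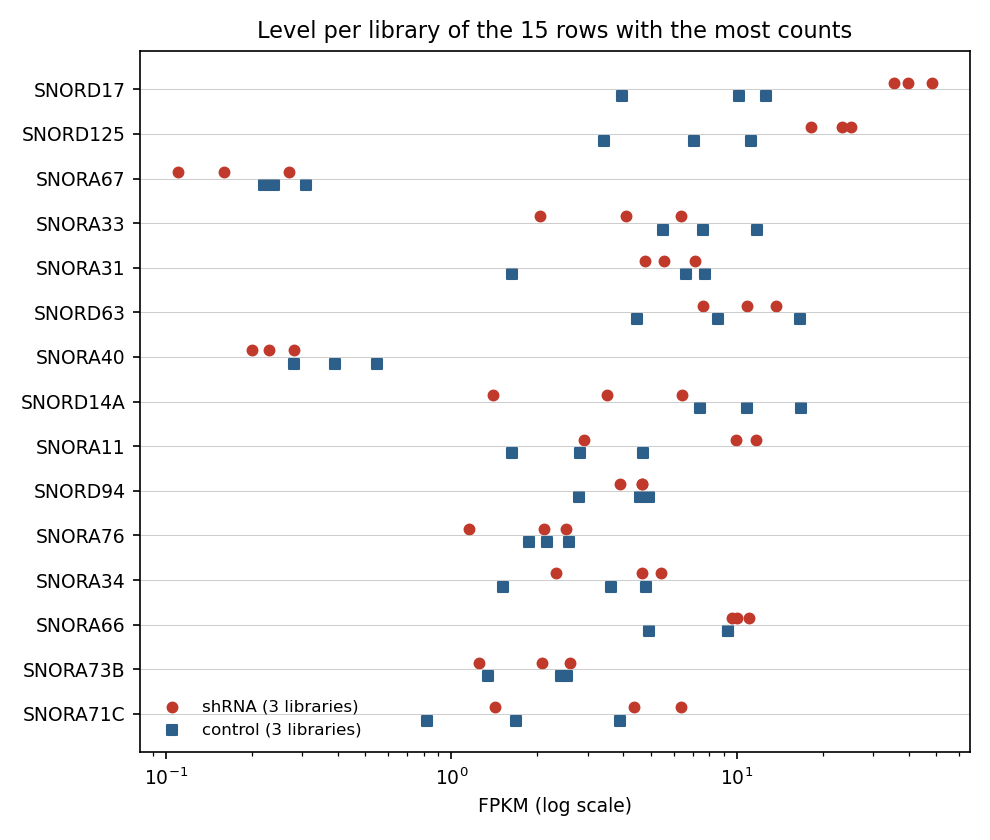
FPKM per library (x axis, log scale) of the 15 rows with the most counts, from SNORD17 down, with 3 shRNA libraries (red circles) above 3 control libraries (blue squares) on each line. SNORA67, SNORA31, SNORA40 and SNORA66 are the rows ENSG00000264772, ENSG00000253051, ENSG00000264043 and ENSG00000251795. In FPKM the groups stand apart for SNORD17, SNORD125, SNORD14A and, narrowly, SNORA66, and overlap for the others.

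No scaRNA row was called. SCARNA2, named for a guide for the spliceosomal U2 RNA, had 1, 1 and 4 counts in shRNA and 1, 3 and 1 counts in control libraries. Its row is a lincRNA model of 427 bases in GENCODE 29. SCARNA1 had 7, 0 and 4 counts in shRNA and none in any control library, at least 4.10-fold higher in shRNA libraries with a floor of 3 counts over the control group (adjusted p = 0.0714, edgeR). It met the minimum of 10 counts through the shRNA group alone, and its bound and p are conditional on that choice. SCARNA10 had 3, 4 and 3 counts in shRNA and 0, 0 and 1 in control libraries, a ratio of 11.2 with a 95% counting interval of 1.59 to 486. SCARNA6 had the same ratio and interval, but 10 of its 11 counts were in shRNA replicate 2. SCARNA10 and SCARNA6 also met the minimum through the shRNA group, so their ratios and intervals are conditional on that choice. SCARNA1, SCARNA10 and SCARNA6 were singled out after their values were seen. SCARNA10 lies in an intron of NCAPD2, which was itself called higher (log2 change 0.96, adjusted p = 8.45e-06, edgeR). The NCAPD2 call held in 15 of 15 alternatives, and its bearing on SCARNA10 was not tested. Of the 9 scaRNA rows, 5 had a positive and 4 a negative fitted change.

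Besides the 4 called rows, 5 had libraries of both groups that did not overlap in TMM-scaled CPM, and they are named after their values were seen. SNORA81 (ENSG00000238390) had 12, 5 and 8 counts in shRNA and 5, 6 and 1 counts in control libraries, with no overlap once scaled to library size, and SNORD3D had 4, 5 and 7 counts in shRNA and 0, 2 and 0 in control libraries. SCARNA10 was the third that was higher in shRNA libraries. SNORD99 had 0, 1 and 2 counts in shRNA and 4, 4 and 3 counts in control libraries, and SNORA46 had 1, 0 and 2 counts in shRNA and 5, 3 and 2 counts in control libraries. In FPKM the groups of SNORA46 overlapped, with shRNA replicate 3 at 0.69 and control replicate 3 at 0.68. Adjusted p-values of the 5 rows ran between 0.0865 and 0.387 (edgeR). SNORD3D and SCARNA10 were called in both limma fits, and SNORD3D also without control replicate 2. Both met the minimum of 10 counts through the shRNA group, and SNORD99 and SNORA46 met it through the control group. The separation, p-values and calls of these rows are conditional on that choice.

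Of the 66 rows, 54 lay within 1 of 44 host genes on the same strand, 46 of them in an intron, 4 overlapping an exon of the host and 4 with no place in GENCODE 29. The hosts had between 734 and 217283 counts. Of the 44 hosts 8 were called higher and 12 lower (45.5%), beside 24.9% of all genes with at least 100 counts, and their median log2 change was -0.03. The 10 rows in ribosomal protein genes had 7 hosts, of which 5 were called lower and none higher, beside 12.3% called lower and 12.6% higher among all genes with at least 100 counts. This background is not matched in count: the median host had 15887.5 counts. The share called rose with counts, from 3.36% at 10 to 99 counts to 24.9% at 100 or more. Whether hosts differ from genes of like count was not tested. The 11 rows in hosts counted as non-coding had 8 hosts, of which 2 were called lower and none higher. TAF1D, the host of SNORD6, was listed with the non-coding hosts although it codes for a protein.

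By pair, 16 rows lay in a host that was called lower and 8 in a host called higher, and in 1 pair, SNORD14A with RPS13, both were called. The log2 change of row and host had a Pearson r of 0.34 over 54 pairs and 0.33 over the 18 pairs in which the row had at least 30 counts. These are descriptions across rows that share libraries, and in part hosts, and that rest on few counts. The median row had 0.197% of the counts of its host in shRNA and 0.124% in control libraries. The median log2 difference between row and host was 0.40 over the 54 pairs and 0.00 over all 994 nested pairs.

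**Figure D5:**
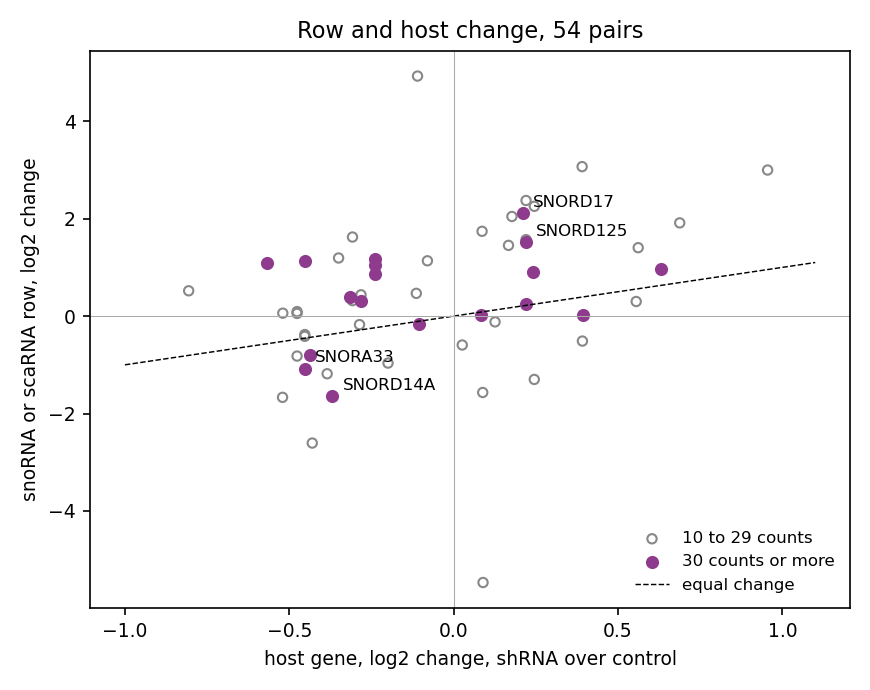
Log2 change of shRNA over control for 54 snoRNA and scaRNA rows (y axis) against that of their host genes (x axis), with filled points for rows of 30 counts or more, open points for 10 to 29 counts and a dashed line of equal change. Host changes ran between -0.81 and 0.96, those of the rows scattered more widely, and SNORD17 and SNORD125 lie well above the line.

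Where 1 host held several rows, their values varied; the hosts and rows given here were picked after their values were seen. SNHG17, a non-coding host, was not called (log2 change -0.24, adjusted p = 0.400), and its 3 rows SNORA71A, SNORA71B and SNORA71C, guides for 18S rRNA, had log2 changes of 1.05, 1.16 and 0.86. The groups overlapped for each of the 3. SNORA71A and SNORA71C were identical in 83.1% of aligned columns, so reads may be shared between them. In KANSL2, a gene of a histone acetyltransferase complex, SNORA34, SNORA2A and SNORA2B had log2 changes of 0.24, 1.57 and 2.37, from 57, 12 and 13 counts, and were identical in 73.9% to 75.7% of aligned columns. In RPS12, SNORA33, SNORD101 and SNORD100 had log2 changes of -1.08, -0.42 and -0.38. None of these 9 rows was called.

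The proteins that bind, assemble and use these RNAs were counted in the same fit. Of 43 genes tested, 2 were called higher and 3 lower, with a median log2 change of -0.01, beside 12.6% called higher and 12.3% lower among all genes with at least 100 counts, so calls were no more common here than in that background. Among core proteins, NHP2L1, the shared U4 and C/D box protein, was at 28.9 ± 0.9 FPKM in shRNA and 45.2 ± 2.3 FPKM in control libraries (log2 change -0.72, adjusted p = 3.09e-04, edgeR). The other 3 core C/D proteins were not called; FBL, the methyltransferase, was at 81.2 ± 3.3 FPKM in shRNA and 96.1 ± 13.6 FPKM in control libraries (adjusted p = 0.0911). None of the 4 core H/ACA proteins was called, and DKC1, the pseudouridine synthase, had a log2 change of 0.00. NPM1, an abundant nucleolar chaperone, was at 127 ± 18 FPKM in shRNA and 229 ± 35 FPKM in control libraries (log2 change -0.92, adjusted p = 6.84e-05). NOLC1, the nucleolar and Cajal body phosphoprotein, fell by 0.67 on the log2 scale (adjusted p = 0.00196).

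GEMIN5, which recognises snRNAs in the SMN complex, was at 8.61 ± 0.18 FPKM in shRNA and 4.97 ± 0.43 FPKM in control libraries (log2 change 0.72, adjusted p = 0.00111, edgeR). COIL, the scaffold protein of Cajal bodies, was at 18.7 ± 3.9 FPKM in shRNA and 11.4 ± 2.1 FPKM in control libraries (log2 change 0.65, adjusted p = 0.0119), and it was named after its value was seen. Its call was lost without shRNA replicate 3, without control replicate 1 and in limma with a pseudocount of 1. The calls of GEMIN5, NPM1, NHP2L1 and NOLC1 held in 15 of 15 alternatives each. None of the 7 genes of snoRNA trimming and decay was called.

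Of 19 listed snoRNA host genes tested, 6 were called lower and none higher, beside 12.3% called lower and 12.6% higher among all genes with at least 100 counts. Their median log2 change was -0.30, beside 0.00 over all genes. The list was meant for non-coding hosts, but TAF1D on it codes for a protein and was not called. The non-coding transcripts were listed as hosts of snoRNAs. EPB41L4A-AS1 was at 2.61 ± 0.08 FPKM in shRNA and 5.02 ± 0.84 FPKM in control libraries (log2 change -1.02, adjusted p = 7.56e-04, edgeR). SNHG5 was at 9.20 ± 0.21 FPKM in shRNA and 15.4 ± 1.7 FPKM in control libraries (log2 change -0.82, adjusted p = 9.90e-04). Both were called in 15 of 15 alternatives. SNHG15 and SNHG6 fell by 0.65 and 0.43 on the log2 scale and lost the call in 6 and 5 of 15 alternatives. SNHG11 and GAS5, the fifth and sixth, are named after their values were seen and had adjusted p-values of 0.0449 and 0.0453, each lost in 9 of 15 alternatives. The nuclear non-coding RNAs MALAT1 and NEAT1 were also called lower, with log2 changes of -1.06 and -0.41. Whether any of these host changes bears on the snoRNA rows was not tested.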

How the data were processed

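RNA from 3 shRNA and 3 control libraries was sequenced, and the deposited table gives a raw count and an FPKM per gene and library. The submitters' processing notes list HTSeq 0.6.1, HISAT2 2.0.1, cutadapt 1.9.1 and DESeq2, without roles. The raw counts are whole numbers as deposited by the authors, and the deposited FPKM equal counts scaled to exonic length and to the library's summed counts, within 0.0051 for 100% of values. The notes list the mouse build mm8 while IDs are human; the table's build is not stated. Gene type, place in the host and sequence were taken from GENCODE 29 (GRCh38) by gene ID.

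The test was that of edgeR 4.0.16 (R 4.3.3): TMM scaling, quasi-likelihood F tests on the 20755 genes with at least 10 counts, Benjamini-Hochberg adjustment over all of them, and a call at an adjusted p under 0.05. SE is that of the difference of group means of log2 CPM (prior count 2). A host is the gene of 1000 bases or more that contains a row on the same strand, the one with most counts if several. Ratios of row to host were tested with limma 3.58.1 on log2 CPM differences over 994 nested pairs. Alternatives were other scalings, filters, DESeq2 1.42.0, limma on log2(FPKM + 1) and log2(FPKM + 0.1), a replicate block, and each library left out. The fits were tested on simulated data. Pearson r of deviations from the group means between same-numbered libraries was -0.08, 0.01 and -0.24, so numbers were not taken to pair libraries. Replicate libraries differed by more than sampling noise, chi-square over degrees of freedom being 7.75 to 47.8. Depth was 15740143 to 22271565 counts, and counting intervals are exact at 95% and cover counting error only.

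Named rows were CPT1A, every called row, the 15 with most counts, SNORD3A, SNORD118, SNORD13, SNORA73B, SCARNA2, their hosts, up to 4 called genes per list with the smallest p, and rows at the edge of the minimum; any other row or gene named, such as RPPH1, SNORD14E, the further rows of SNHG17, KANSL2 and RPS12, FBL and DKC1, was chosen after its values were seen. The rows and gene lists were chosen with earlier results of these data known.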

Additional observations from a re-analysis of the deposited data

How the results depend on the processing

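Counts of rows called higher (2) were 2 under every other scaling, filter, count minimum and the DESeq2 test, and 4 in limma on log2(FPKM + 1) and 4 on log2(FPKM + 0.1), where SNORD3D and SCARNA10 were added; with single libraries left out they were 1 to 3. Counts called lower (2) were 1 with total counts alone, 1 with at least 1 FPKM in 3 libraries (41 rows tested), 1 with filterByExpr (12 tested), 1 with DESeq2, 0 in limma on log2(FPKM + 1), 1 on log2(FPKM + 0.1), 1 for rows with at least 30 counts (23 tested), 0 for rows with at least 100 counts (3 tested), 1 for rows typed as small RNA (54 tested, chosen after seeing the data) and 0 to 2 with single libraries left out. SNORD3D and SCARNA10 met the count minimum through the shRNA group, so their calls in limma are conditional on that choice. Some settings test fewer rows by construction. Otherwise the cause was not tested. Row-to-host ratios called higher (1) were 2 where both genes had at least 100 counts (2 pairs) and 1 to 2 with single libraries left out, and those called lower (0) were 0 to 1. The difference in summed CPM (11.05) was 3.42 without SNORD17. With the replicate number as a block, 2 rows were called higher and 2 lower, and 1 ratio higher and 0 lower, so the pairing changed no row's call; it ended those of GAS5 and SNHG11. Directions reversed only in uncalled log2 values with a library left out, over these ranges: AHSA1 -0.0376 to 0.16 and PSMB5 -0.00448 to 0.16 (each reversed without control replicate 2), SNORA31 (ENSG00000253051) -0.37 to 0.36, SNORD63 -0.31 to 0.61, SNORD94 -0.17 to 0.14, SNORA34 -0.0834 to 0.60, SNORA73B -0.38 to 0.0888 and SCARNA2 -0.53 to 0.88. Among single genes, 633 other values kept direction and side of the threshold, 64 lost and 11 gained a call. With a median of 18 counts, differences of most rows were not detectable at this depth unless large.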
